A study of Homo sapiens with 2 samples.

Results

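Myosins are motor proteins that pull on actin filaments, and their heavy chains, light chains and unconventional relatives were taken as every probe set whose single gene symbol begins with MYH, MYL or MYO directly followed by a digit. The symbols gave 108 probe sets of 51 genes, out of 54613 probe sets and 19775 named genes on the array. For each gene the probe set brightest over both arrays on the log2 scale was used, and 27 of the 51 genes had a signal of 100 or more on at least 1 array and are called measured. The other 24 genes read between 11.5 and 91.2 on both arrays. The values just inside that limit were those of MYL2 (107 on its higher array), MYO15B (124.0) and MYH7 (129.4), and those just outside were MYO1F (91.2), MYL3 (82.9) and MYH1 (82.7).

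The arrays hold RNA of hTERT-RPE1, a line of human cells from the retinal pigment epithelium made immortal with telomerase and often used to study the primary cilium. Cells of 1 culture received a control oligo and cells of the other a miR-129-3p oligo, both with a lipid reagent, and RNA was taken after 72 h. All cells were of this 1 line and grew in 10% fetal bovine serum with hygromycin B, and each group is 1 Affymetrix array. No value therefore has a replicate error, no difference was tested, and every difference compares these 2 arrays rather than the conditions. By its title, the study asked how miR-129-3p acts on cilium assembly through CP110 and through actin.

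Conventional, or class II, myosins are built from a pair of heavy chains, each carrying an essential and a regulatory light chain, and they assemble into bipolar filaments that slide actin filaments past each other. In non-muscle cells such filaments tighten stress fibres, the cell cortex and the cleavage furrow, and phosphorylation of the regulatory light chain by myosin light chain kinase and other kinases switches them on. Unconventional myosins do not form such filaments and mostly carry membranes, organelles or signalling domains along actin. In epithelial cells actomyosin tension bears on cell shape and on whether a cilium is built.

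The oligo is named for miR-129-3p, a microRNA arm that 2 human genes encode, and the labels do not say which form was used. Both mature forms are shown because the capitals, bases 2 to 8 from the 5′ end, mark the seed through which a microRNA chiefly finds its targets. They come from RefSeq, build GRCh38.p14, at chr7:128207920-128207941 and chr11:43581450-43581471, both on the plus strand.
hsa-miR-129-1-3p: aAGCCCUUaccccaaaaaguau
hsa-miR-129-2-3p: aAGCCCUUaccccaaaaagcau
The forms share the seed and differ by U20C, with the base of the first form before the position, counted from the 5′ end, and the base of the second after it. Sites for this seed in myosin transcripts were not analysed here.

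With miR-129-3p, myosin signals were mostly lower. Differences are given as the log2 of the signal plus 16 on the miR-129-3p array minus that on the control array, a scale that understates differences of dim genes. Of the 27 measured genes, 22 were below 0 and 5 above, and the median was -0.35. At least 1.5-fold lower were 8 genes (29.6%), namely MYL9, MYH9, MYH14, MYO1C, MYO5C, MYO5A, MYH10 and MYL2, and 0 were 1.5-fold higher. Over all 12754 measured genes 10.8% were lower by that much, 17.3% were higher, 47.1% were below 0 and the median was 0.03. With no limit on signal, 42 of all 51 myosin genes were below 0 and 9 above. The median was then -0.20, beside -0.01 over all 19775 named genes. The lean below 0 was thus also present among myosin genes too dim to be called measured. At 2-fold, 4 myosin genes were lower (MYL9, MYH9, MYH14 and MYO1C) and 0 higher, against 4.56% and 7.83% of all measured genes.

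**Figure D1:**
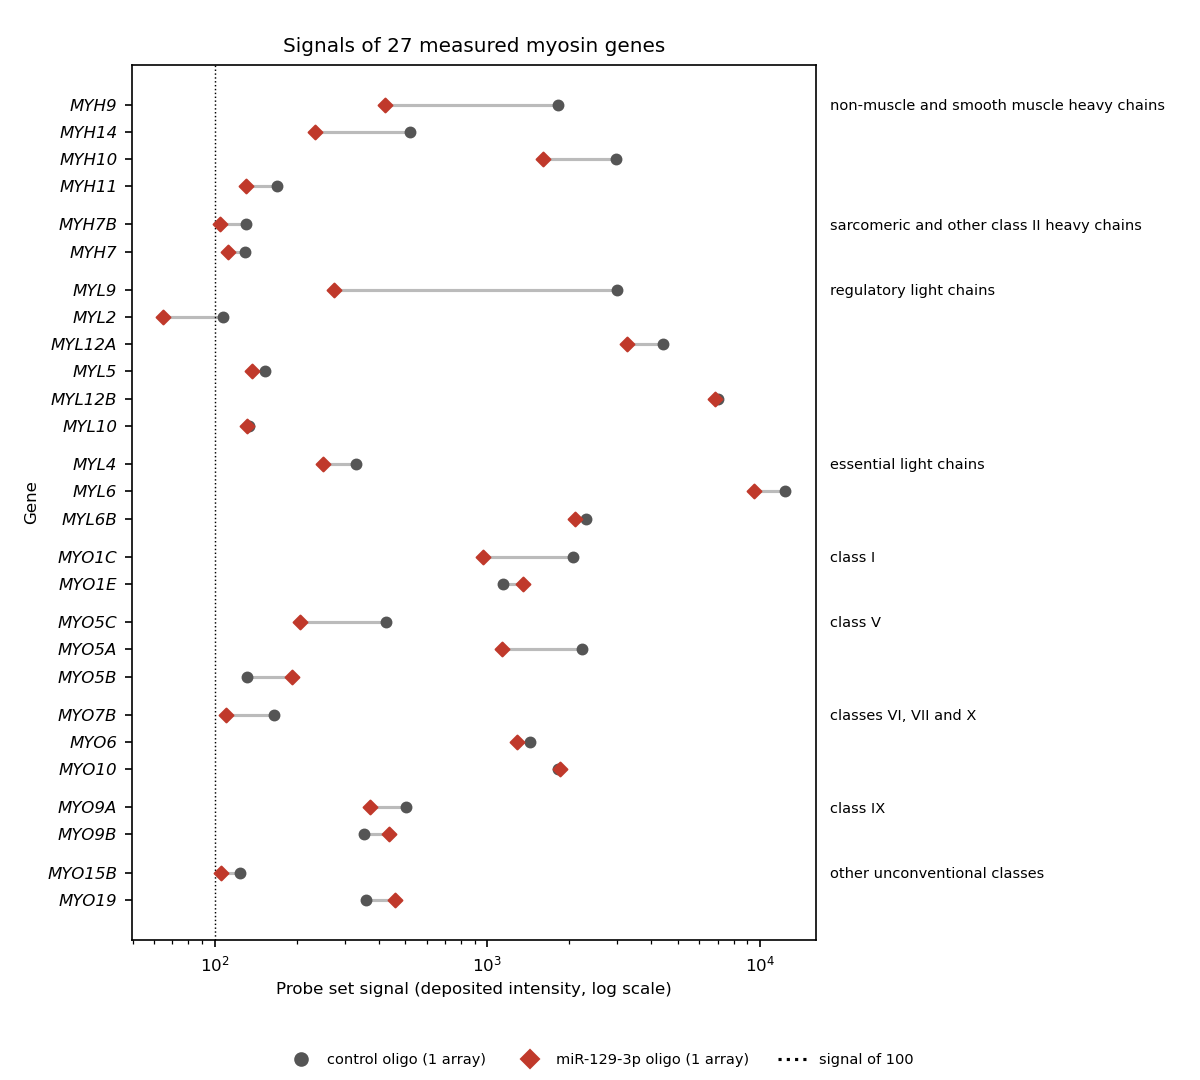
Signals of the 27 measured myosin genes on the control array (grey circles) and the miR-129-3p array (red diamonds), 1 array each with no error bars, on a log axis and grouped by role. The widest gaps are those of MYL9 (2993 and 275) and MYH9 (1811 and 423), and only the 2 marks of the same gene can be compared, since probe sets differ in how bright they are.

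The share of lower genes was also read among bright and among dim genes, a split chosen after the values were seen. Of 12 myosin genes at 1000 or more on either array, 5 were at least 1.5-fold lower (41.7%), beside 13.8% of all genes that bright. Of the 15 between 100 and 1000, 3 were (20.0%), beside 8.92% of all such genes. MYL2 is among these 3 and passed the limit of 100 only on the control array; with signals under 100 set to 100, 2 of the 15 were (13.3%), beside 8.51%. These shares describe 1 pair of arrays, and the members share regulators and sequence, so they are not independent of each other.

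**Figure D2:**
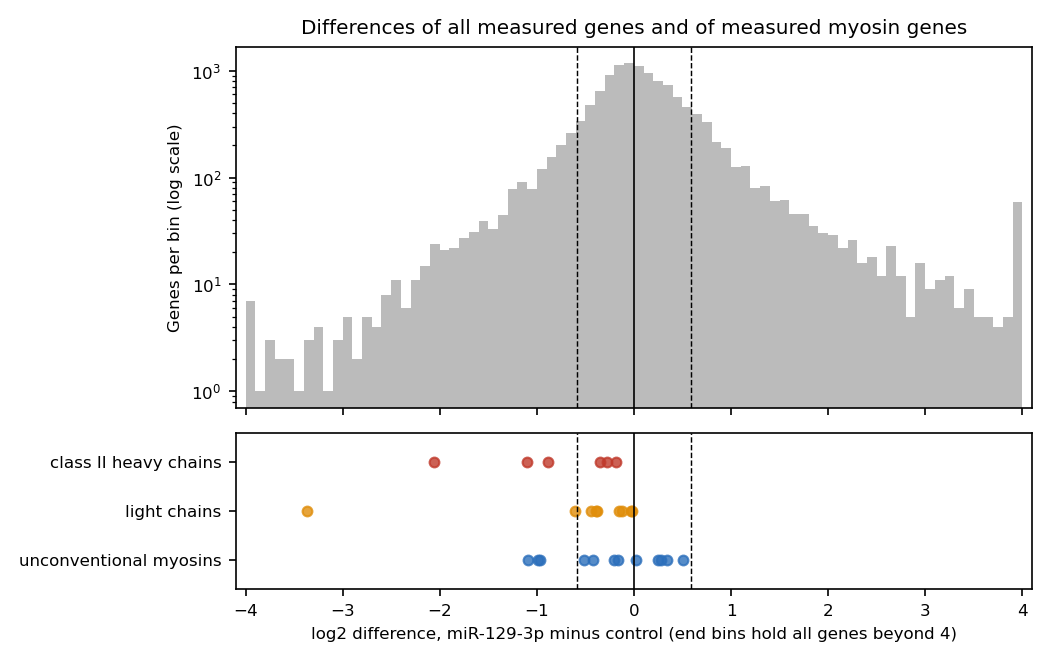
Histogram of the log2 differences of all 12754 measured genes (grey, counts on a log axis, end bins holding everything beyond 4) above the differences of the measured myosin genes, 1 point per gene by kind of chain; dashed lines mark 1.5-fold. All 6 measured class II heavy chains and all 9 measured light chains lie left of 0, whereas 5 of 12 unconventional myosins lie right of it.

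The heavy chains of non-muscle myosin II were lower on the miR-129-3p array. MYH9 encodes the heavy chain of non-muscle myosin IIA, the isoform known for contractile stress fibres. Its only probe set read 1811 with the control oligo and 423 with the miR-129-3p oligo, a difference of -2.06 or 4.16-fold on this scale. The value on the miR-129-3p array was 23.3% of that in control, and the difference ranked 103 from the lowest of 12754 genes. MYH10 encodes the heavy chain of IIB, which is known for slower motion and longer attachment to actin. It read 2959 with the control oligo and 1594 with the miR-129-3p oligo, differing by -0.89, and its second probe set read 697 and 420.5, a difference of -0.71. Both MYH10 probe sets thus passed 1.5-fold in the same direction, by less than MYH9 did.

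MYH14, the heavy chain of IIC, read 521 with the control oligo and 234 with the miR-129-3p oligo, differing by -1.10. That value rests on 1 probe set, since the other with a signal of 100 or more read 120.2 and 116, a difference of -0.04. The other 4 MYH14 probe sets stayed under 100 on both arrays, from 45.9 to 97.6. MYH11, the heavy chain of smooth muscle, read 169 and 129.9, a difference of -0.35, on the only 1 of its 7 probe sets that reached 100. The 4 genes of the non-muscle and smooth muscle group were thus all lower, 3 of them by at least 1.5-fold, and MYH9 differed most of them.

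The start region of MYL9 was not analysed here. Of 6 searched myosin genes that were at least 1.5-fold lower, only MYH9 and MYH10 held the motif marked below. It was in 2 of their 9 windows (22.2%, beside 14.0% of all windows). The start regions of MYH9 and MYH10 are shown for that reason. Each covers 250 bases before to 50 after an annotated start in RefSeq, GRCh38.p14, on the gene's own strand, here minus: chr22:36387918-36388217 for MYH9 and chr17:8630676-8630975 for MYH10. Capitals mark GGAATG, read as CATTCC on the other strand, a short motif recognised by TEAD factors, the DNA-binding partners of YAP.
MYH9: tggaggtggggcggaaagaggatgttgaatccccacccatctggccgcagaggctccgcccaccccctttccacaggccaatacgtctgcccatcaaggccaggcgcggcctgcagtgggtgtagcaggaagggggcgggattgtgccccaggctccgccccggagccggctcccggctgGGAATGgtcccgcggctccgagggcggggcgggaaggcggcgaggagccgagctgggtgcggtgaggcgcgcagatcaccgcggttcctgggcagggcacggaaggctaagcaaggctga
MYH10: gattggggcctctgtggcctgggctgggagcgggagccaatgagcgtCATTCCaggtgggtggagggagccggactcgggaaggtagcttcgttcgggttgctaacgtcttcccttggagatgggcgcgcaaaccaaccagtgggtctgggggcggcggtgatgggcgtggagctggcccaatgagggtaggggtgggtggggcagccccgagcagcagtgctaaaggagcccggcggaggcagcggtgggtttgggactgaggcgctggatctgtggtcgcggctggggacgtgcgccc
The motif begins 70 bases before the start in MYH9 and 203 bases before it in MYH10, and each window holds 1 match. It was found in windows of 4 of the 20 measured myosin genes that had one (MYH9, MYH10, MYL12A and MYO7B), or 4 of 28 windows (14.3%), beside 14.0% of all 35116 windows, so it was as common here as elsewhere. The CArG box, the motif of serum response factor, was searched on both strands too and can share only its end letters with GGAATG. It was found for 1 of these genes, MYO1E, in 1 of 28 windows (3.57%, beside 1.29% of all), too few to compare the shares. None of the matches lay in the 9 windows of the lower myosin genes. A match in these letters is a description and not evidence of binding.

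Among regulatory light chains, which carry the phosphorylation site that switches the motor on, MYL9 differed most of all myosin genes. MYL9 encodes a regulatory light chain of smooth muscle and non-muscle myosin II. Its main probe set read 2993 with the control oligo and 275 with the miR-129-3p oligo, a difference of -3.37 or 10.3-fold, rank 18 from the lowest of 12754 genes. Its other probe set read 170.3 and 59.9, a difference of -1.29, so that both passed 1.5-fold but differed widely in size. The main probe set read 9.18% of control with miR-129-3p, and the second read under 100 there.

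MYL12A and MYL12B encode the near-identical regulatory light chains that also serve non-muscle myosin II. MYL12B read 7004 with the control oligo and 6861 with the miR-129-3p oligo, differing by -0.03. MYL12A read 4391 and 3240 on its brightest probe set, a difference of -0.44. The other 3 MYL12A probe sets, with control signals of 149 to 249, differed by -0.88, -0.87 and -0.58, and the mean of all 4 is -0.69, past 1.5-fold. The 3 light chains of the same motor therefore ran from -3.37 to -0.03 on these arrays. MYL12A and MYL12B are close copies, and a probe set annotated to more than 1 light chain gene, left out of the rule, read 9675 and 8898.

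The remaining regulatory light chains were dim. MYL2, the regulatory light chain of ventricular and slow skeletal muscle, read 107 and 64.7, a difference of -0.61. It passed 1.5-fold by the narrowest margin of the 8 genes, and with signals under 100 set to 100 its difference was -0.10. MYL5 read 153 and 136 (-0.15) and MYL10 read 134 and 131 (-0.02). MYL7 and MYL11, light chains of atrial and of fast skeletal muscle, stayed under 100.

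Essential light chains, which stiffen the lever arm of the motor, were lower by less than 1.5-fold. MYL6, the essential light chain of non-muscle and smooth muscle myosin II, read 12346 with the control oligo and 9477 with the miR-129-3p oligo, differing by -0.38. Its second probe set read 631 and 483 with the same rounded difference of -0.38. MYL6B, its close relative, read 2292 and 2100.4 (-0.13). MYL4, the embryonic and atrial form, read 330.2 and 249 (-0.39) and 280.2 and 216 (-0.35) on its probe sets with signal. MYL1 and MYL3, light chains of fast skeletal and of ventricular muscle, read under 100.

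The remaining class II heavy chains, mostly those of striated muscle, gave little signal. Of 11 such genes 2 were measured, and neither differed by 1.5-fold: MYH7, the slow skeletal and beta cardiac chain, at 129.4 and 112 (-0.19), and MYH7B at 130.4 and 105 (-0.28). The other 9 (MYH1, MYH2, MYH3, MYH4, MYH6, MYH8, MYH13, MYH15 and MYH16) stayed under 100 on both arrays. MYH16 read 18.8 and 37.0 and MYH8 59.7 and 30.0, which would count as 1.5-fold higher and lower if no limit on signal were set. Markers of skeletal muscle were likewise low, with 7 of 7 analysed between 21.2 and 210.5 and summed signals of 745 for the control array and 697 for the miR-129-3p array.

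**Figure D3:**
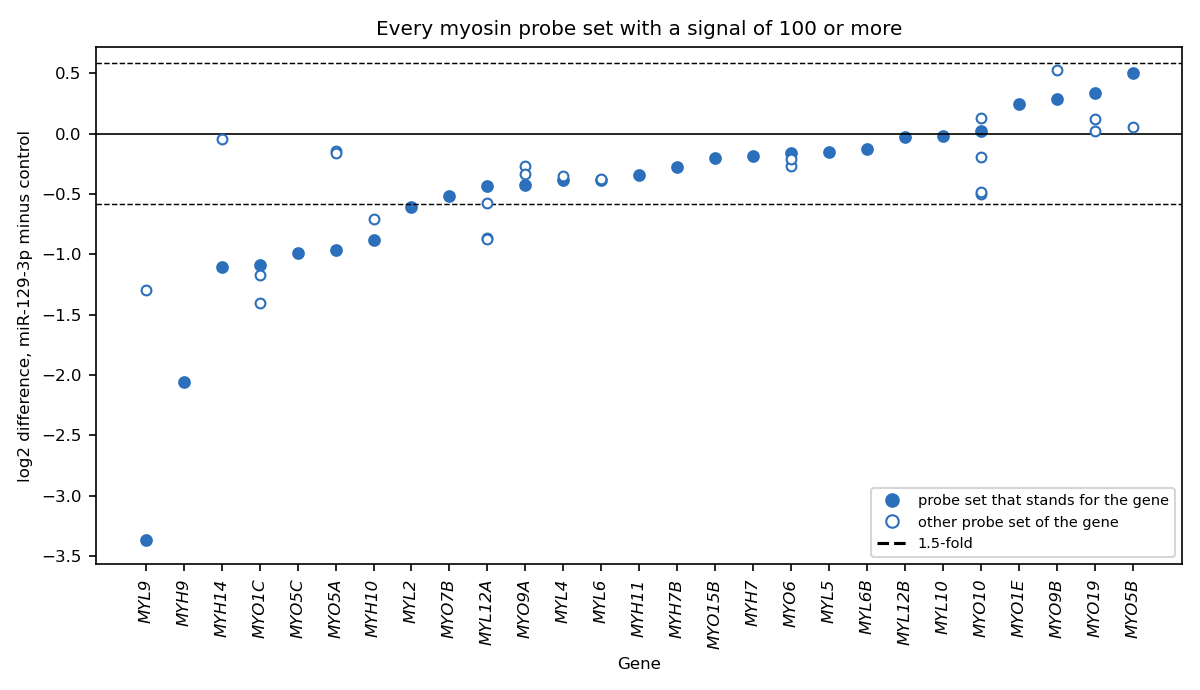
Log2 differences of every probe set at 100 or more for the measured myosin genes, ordered by the probe set that stands for the gene (filled) with the gene's other probe sets open; the dashed lines mark 1.5-fold. MYO1C and MYH10 have all their points past the lower line, while MYH14 and MYO5A have a filled point past it and open points near 0.

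Several probe sets per gene give a measure of spread within the arrays. Of 14 measured myosin genes with more than 1 probe set at 100 or more, 13 had all of them on the same side of 0, with MYO10 the exception. Among the 51 myosin probe sets at 100 or more, 14 were at least 1.5-fold lower (27.5%) and 0 higher, beside 11.1% and 16.7% of all such probe sets. That count takes some genes more than once, such as MYO1C with 3 probe sets, so it adds no independent genes. It includes probe sets of MYL12A (178 and 89.4), MYL9 (170.3 and 59.9) and MYL2 (107 and 64.7) that reached 100 only with the control oligo. Within genes the probe set differences had a pooled SD of 0.40 (14 genes), beside 0.37 over the 6179 genes of the array with several. This spread does not include that between cultures.

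Class I myosins are single-headed motors that tie membranes to actin, and the 2 measured ones went opposite ways. MYO1C, which acts in membrane tension and vesicle delivery, read 2066 with the control oligo and 961 with the miR-129-3p oligo, differing by -1.09. Its other probe sets read 1472 and 547 (-1.40) and 1151 and 500.4 (-1.18), so all 3 were more than 2-fold lower. MYO1E, which acts at sites of endocytosis, read 1140 and 1353, a difference of 0.24, under 1.5-fold. The other 5 (MYO1A, MYO1D, MYO1F, MYO1G and MYO1H) stayed under 100.

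Class V myosins walk along actin with vesicles and organelles. MYO5C, the form of glandular and other epithelia, read 424 with the control oligo and 206 with the miR-129-3p oligo on its only probe set, a difference of -0.99. MYO5A, which carries pigment granules and other cargo, read 2216 and 1129, a difference of -0.96, but 419 and 377 (-0.14) and 114 and 99.8 (-0.16) on its other probe sets with signal. MYO5B, which moves recycling endosomes, read 131 and 192, a difference of 0.50, which is short of 1.5-fold. Its second probe set read 99.2 and 104, a difference of 0.06. Of the 3 genes of the class, 2 were thus lower by at least 1.5-fold and 1 was higher by less, with the size for MYO5A resting on its brightest probe set.

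The other measured unconventional myosins with a probe set of a single gene symbol were all within 1.5-fold. MYO6, the motor that walks towards the minus end of actin and takes part in endocytosis, read 1436 with the control oligo and 1281 with the miR-129-3p oligo, differing by -0.16, and its 3 probe sets lay between -0.27 and -0.16. MYO10, which travels to the tips of filopodia, read 1816 and 1847, a difference of 0.02. Its 5 probe sets ran from -0.50 (269 and 185) to 0.13 (696 and 762), so it had no single direction. MYO7B, a motor of brush border microvilli, read 165 and 110.5, a difference of -0.52, and MYO7A stayed under 100.

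The 2 genes of the class IX myosins lay on either side of 0. MYO9A read 505 with the control oligo and 372 with the miR-129-3p oligo, differing by -0.42, with its other probe sets at -0.34 and -0.27. MYO9B read 354 and 435, a difference of 0.28, with its other probe set at 0.52 (165 and 244). All measured probe sets of each gene kept to 1 side, and none passed 1.5-fold.

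MYO19, a motor found on mitochondria, read 358 with the control oligo and 457 with the miR-129-3p oligo, differing by 0.34, with its other probe sets with signal at 0.12 and 0.02. MYO15B read 124.0 and 106, a difference of -0.20. MYO3A, MYO3B, MYO15A, MYO16 and MYO18B stayed under 100 on both arrays. Of the 12 measured unconventional myosins, 7 were below 0 and 5 above, with a median of -0.18, while class II heavy chains had a median of -0.62 over 6 genes and light chains one of -0.38 over 9.

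Genes that switch the class II motor on or off were compared from a list of 35, of which 33 could be analysed and 28 were measured. At least 1.5-fold lower were 8 of the 28 (28.6%) and 2 were higher, beside 10.8% and 17.3% of all measured genes, and the median was -0.26. MYLK, the myosin light chain kinase, read 7488 with the control oligo and 3521 with the miR-129-3p oligo, differing by -1.09, and its 3 probe sets lay between -1.40 and -1.04. CALD1, caldesmon, which restrains myosin on actin, read 9043 and 4237, a difference of -1.09, and 10 of its 11 probe sets with signal were at least 1.5-fold lower. ANLN, anillin, which binds myosin II in the cleavage furrow, read 2444 and 405, a difference of -2.55, and -2.48 on its other probe set. Each of these 3 genes was lower on all or nearly all of its probe sets.

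Most regulators were lower by some amount. Of the 28 measured, 23 were below 0 (82.1%, beside 47.1% of all measured genes) and 5 above. PPP1R12A, the myosin-binding subunit of the light chain phosphatase, read 1767 and 1301 (-0.44). The 2 genes that were at least 1.5-fold higher were SVIL and S100A4. SVIL, supervillin, which ties myosin II to membranes, read 1327 and 2461 (0.88, with 3 of 3 probe sets past 1.5-fold). S100A4, which binds the tail of non-muscle myosin IIA, read 209 and 368 (0.77).

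**Figure D4:**
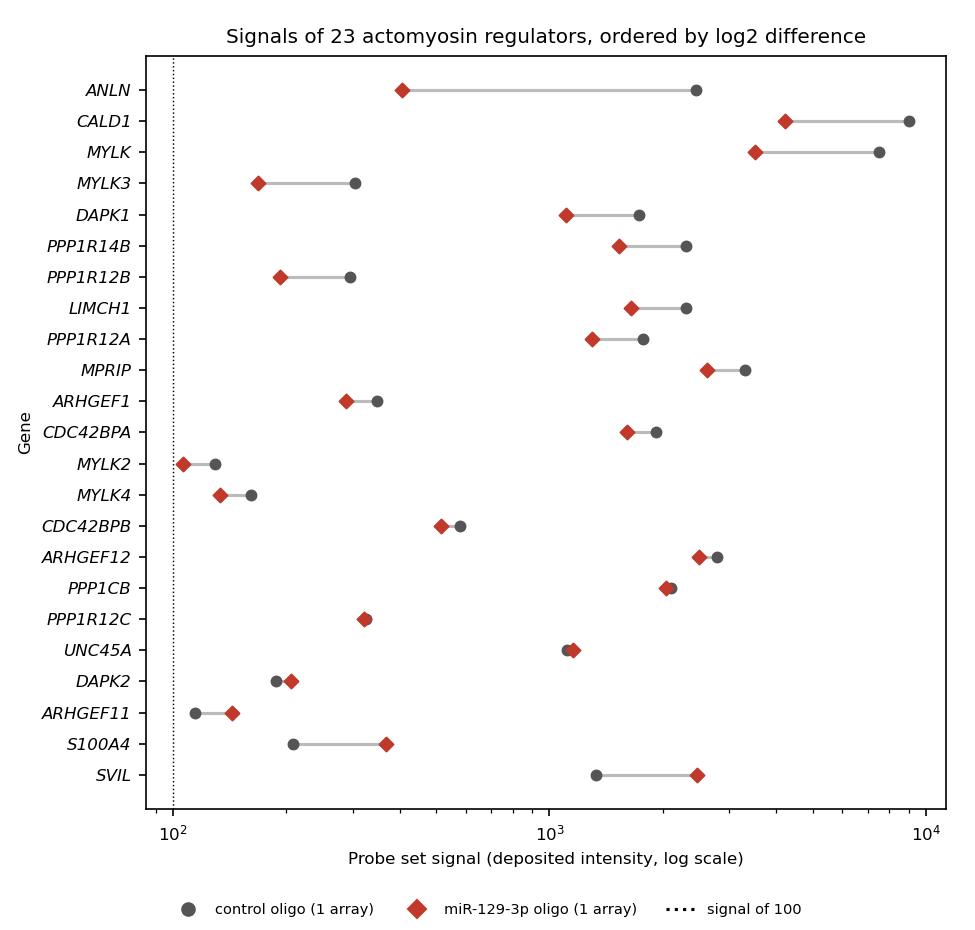
Signals of 23 of the 28 measured actomyosin regulators on the control array (grey circles) and the miR-129-3p array (red diamonds), 1 array each on a log axis, ordered by log2 difference from the lowest. ANLN, CALD1 and MYLK head the plot with lower signals, and SVIL and S100A4 close it with higher ones; levels of different genes cannot be compared.

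Partners of unconventional myosins, such as the small GTPases and adaptors that tie them to cargo, were near the background in their calls. Of a list of 20, 16 could be analysed and 14 were measured, of which 3 were at least 1.5-fold higher (21.4%, beside 17.3% of all measured genes) and 0 lower. Above 0 were 11 (78.6%, beside 52.9%), with a median of 0.28 beside 0.03. RAB27A, which recruits MYO5A to pigment granules through melanophilin, read 1272 with the control oligo and 2064 with the miR-129-3p oligo (0.69), with 5 of 5 probe sets above 0. DAB2, an endocytic adaptor of MYO6, read 1993 and 3155 (0.66), with all 6 probe sets between 0.37 and 0.66. RAB11FIP2, which links MYO5B to recycling endosomes, read 601 and 914 (0.59). For each of these 3 genes all probe sets with signal were above 0.

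Markers of other cell types were read beside the myosins. Of 5 smooth muscle markers all 5 were measured and below 0, 3 were at least 1.5-fold lower, and their summed signal was 21718 for the control array and 3666 for the miR-129-3p array. ACTA2, the smooth muscle actin gene, read 11066 and 2187, LMOD1, leiomodin, 1498 and 285, and CNN1, calponin, 104.7 and 88.8. Of 5 cardiac markers 4 were analysed, with a summed signal of 1716 and 486: ACTC1, cardiac actin, read 1290.0 and 142, NPPA 281 and 192, TNNI3 101 and 103, and RYR2 43.1 and 48.8. The 5 smooth muscle markers and ACTC1 were lower together with MYL9 and MYH9, and their part in the myosin differences was not tested. All cells were of 1 line, so these signals do not stand for separate muscle cells. In RNA of whole cultures, fewer cells with a transcript and less of it per cell cannot be told apart.

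The label of the line was checked on markers of retinal pigment epithelium. Of 8 such markers 4 were measured: MITF (2470.3 and 1020.2), OTX2 (1452 and 1625), PMEL (114 and 229) and TTR (91.0 and 109.6). The others, RPE65, BEST1, RLBP1 and TYRP1, were under 100 on both arrays, with the visual cycle gene RPE65 at 6.44 and 6.66. The filament genes KRT8 (6138 and 4918), KRT18 (5787 and 2972) and VIM (18474 and 16201) were bright. Blood cell markers had a summed signal of 418 and 379.8 over 3 genes, with PTPRC at 36.9 and 41.0.

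The 2 arrays had similar overall brightness, with medians of 96.5 and 98.0 and 48.9% and 49.4% of probe sets at 100 or more. Centring or quantile normalization left the same 8 myosin genes at least 1.5-fold lower. Without probe sets whose names end in _s_at or _x_at, which can match several transcripts, 18 myosin genes remained and 5 of them were lower by that much (27.8%, beside 11.2% of all genes). That setting takes out MYH9, whose only probe set is of this kind, and changes MYH14 to -0.04 and MYL9 to -1.29.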

How the data were processed

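Total RNA (100 ng) was labelled with biotin and hybridised to Affymetrix arrays, per the labels' protocols. The authors deposited 1 signal intensity per probe set and array, from 1 to 20822 on a linear scale. MAS5 and RMA are both named by the submitters' processing notes, and which of them made these intensities is not said. Version, scaling and detection calls are not given in the sources used here, so whether dim signals were floored or compressed is unknown.

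Groups came from the genotype label. Probe sets were named from the platform annotation: 41091 carried a single gene symbol, and the 1801 with more than 1 symbol and the 11721 it does not list were left out. Intensities were analysed as log2(value + 16), with 1 probe set per gene. No test was run, since each group held 1 array, which limits the precision. Calls are folds of 1.5 on this scale, set beside the share over all measured genes. Every measured myosin gene is named; from the 2 partner lists, the 3 largest differences past 1.5-fold in each direction and 7 genes of light chain control, of which 5 are not reported here. The members and lists were chosen with earlier results of these data known. By gene ID, 41037 of the named ones were found in RefSeq's gene table. Protein sequences of the light chains were not used here. Promoter windows were matched by symbol for 40 of 51 genes.

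Alternatives were median centring, quantile normalization, added constants of 64 and 1, no filter, filters of 200 and 1000, the mean of a gene's probe sets, no _s_at or _x_at probe sets, a floor of 100, and a limit of 2-fold; the filter of 1000 was chosen after seeing the data. Code was tested on simulated data. Scripts ran in Python 3.11.15 with matplotlib 3.10.9, pandas 2.3.3 and numpy 2.4.6.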

Additional observations from a re-analysis of the deposited data

Results flagged for a closer look

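A probe set that the annotation gives to a myosin, MYO18A, and to a second gene, TIAF1, therefore enters no comparison above. The probe set read 497 with the control oligo and 843 with the miR-129-3p oligo. That is 0.74 higher on the log2 scale, past 1.5-fold. It was singled out as a signal above the control outside the values used. Which of its genes the signal comes from was not tested.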

How the results depend on the processing

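The count of 8 myosin genes at least 1.5-fold lower stayed between 7 and 9 under both scalings, added constants of 64 and 1, no filter, a filter of 200, the mean of all probe sets and a floor of 100. The myosin share ran from 17.6% with no filter (9 of 51, beside 7.33% of all genes) to 38.9% with a filter of 200 (beside 12.1%). The genes were not always the same. With the mean of all probe sets, MYH14 (-0.57) and MYO5A (-0.42) fell short of 1.5-fold and MYL12A (-0.69) passed it. MYL2 fell short with 64 added and with the floor. The count was 5 of 18 without _s_at and _x_at probe sets (27.8%, beside 11.2% of all genes) and 5 of 12 with a filter of 1000 (41.7%, beside 13.8%). At 2-fold it was 4 of 27 (14.8%, beside 4.56%). These settings leave fewer genes or ask for more, and the first also moved MYH14 short of 1.5-fold. The count of higher genes was 0 in all of these except with no filter, where it was 1 (MYH16, under 100 on both arrays). The median stayed between -0.41 and -0.20. The regulators counted as lower, 8, became 4 at 2-fold. Under both scalings, with 1 added and with the floor, 9 regulators were lower, and 7 with 64 added or a filter of 1000. PPP1R14B lay just past the limit at 1.502-fold lower and PPP1R12B just short of it at 1.495-fold. With the mean of all probe sets 6 regulators were lower and 3 higher. Those counted as higher, 2, became 0 at 2-fold and 1 without _s_at and _x_at probe sets or with a filter of 1000. With quantile normalization 23 of 27 myosin genes were below 0, since MYO10 changed side. Of 180 values of single genes under alternatives other than the filters, which cannot move them, 172 moved by less than 0.37, the SD between probe sets of a gene, 8 moved by more and 0 of those past 1.5-fold changed sign. The largest moves include MYH14 (-0.04) and MYL9 (-1.29) without _s_at and _x_at probe sets. No paired analysis was possible because each group holds 1 array.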
